A study of Homo sapiens with 3 samples.

Results

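The transcription factors PAX2, PAX8, LHX1, WT1, SIX2, SALL1, EYA1 and GATA3 build the kidney in the embryo, and their transcripts were followed in HEK293T cells, a transformed line started from human embryonic kidney. They were taken by symbol, 8 of 23284 genes in the deposited gene table, together with their 24 RefSeq isoforms of 41138 in the isoform table. Each of 3 cell samples gave 1 polyadenylated RNA library, sequenced with Ion Torrent chemistry: cells given an siRNA against ESRP2, cells given an siRNA against Arkadia (the RNF111 gene), and cells given a negative control siRNA. All were HEK293T cells reverse-transfected with lipid, grown without added TGF-beta and harvested 48 h after seeding, so every value comes from 1 established line and 1 transfection. There are no replicates, and each difference below is one between 2 libraries, with no test and no p-value.

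In the embryo the kidney forms from the nephric duct, whose ureteric bud grows into the metanephric mesenchyme, and both tissues induce each other. PAX2 and PAX8, paired-domain factors that can stand in for each other in part, and LHX1, a LIM homeodomain factor, establish the nephric lineage, and GATA3, a zinc finger factor, acts in the duct. In the mesenchyme EYA1, a coactivator and phosphatase, works with homeodomain partners such as SIX2. SALL1 is a zinc finger repressor needed for bud outgrowth, WT1 is a zinc finger factor of the mesenchyme and later of podocytes, and SIX2 keeps nephron progenitors undifferentiated.

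The alternative segments that separate the isoforms of WT1, GATA3 and PAX2 are shown because isoforms that differ by these bases had different shares between the libraries. For PAX2 the largest change lay between isoforms that differ elsewhere, by 19 nt that were not placed in the transcript and are not printed. Capitals mark the bases that one isoform has and the other lacks, with 30 bases of coding sequence on either side in lower case, 5′ to 3′ on the coding strand. They were read from GENCODE 29 transcripts (GRCh38) matched to the RefSeq isoforms. WT1 is on chromosome 11, minus strand, and GATA3 and PAX2 are on chromosome 10, plus strand.
WT1 exon 5 included: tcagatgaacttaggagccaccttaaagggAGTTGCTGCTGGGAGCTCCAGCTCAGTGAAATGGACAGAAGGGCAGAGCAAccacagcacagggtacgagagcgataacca
WT1 exon 5 absent: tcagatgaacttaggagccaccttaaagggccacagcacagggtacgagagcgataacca
WT1 KTS segment included: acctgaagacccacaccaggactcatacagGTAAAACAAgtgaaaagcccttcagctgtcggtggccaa
WT1 KTS segment absent: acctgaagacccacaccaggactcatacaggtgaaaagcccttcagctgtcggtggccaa
GATA3 segment included: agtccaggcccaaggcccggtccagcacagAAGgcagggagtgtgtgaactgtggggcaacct
GATA3 segment absent: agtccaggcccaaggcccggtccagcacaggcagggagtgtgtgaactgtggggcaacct
PAX2 exon 6 included: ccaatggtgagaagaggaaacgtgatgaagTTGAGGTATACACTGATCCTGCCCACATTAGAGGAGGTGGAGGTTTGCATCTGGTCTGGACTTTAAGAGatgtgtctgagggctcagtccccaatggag
PAX2 exon 6 absent: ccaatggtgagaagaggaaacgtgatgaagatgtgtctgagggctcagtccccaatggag
The segments are 51, 9, 3 and 69 nt long and keep the reading frame. WT1 exon 5 and PAX2 exon 6 are whole exons, the KTS segment is the end of an exon, and the GATA3 segment is the start of exon 4. The KTS segment, named for the lysine, threonine and serine it adds between the last WT1 zinc fingers, is known to change how WT1 binds DNA and RNA.

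Levels are the authors' FPKM, fragment counts scaled to transcript length and library size, each with the lower and upper bound of the interval deposited beside it. In each library, the most common low FPKM of genes with 1 isoform, scaled to 1 kb, was taken as the value of 1 read. It was about 0.0817 with ESRP2 siRNA, 0.113 with Arkadia siRNA and 0.085 with control siRNA, so the Arkadia siRNA library was the shallowest. In such bulk samples fewer cells expressing a gene and less RNA per cell cannot be told apart. Approximate read numbers below rest on these values of 1 read. The targeted transcripts were low in the libraries that received their siRNAs: RNF111 had an FPKM of 1.15 with Arkadia siRNA against 6.38 with control siRNA, and ESRP2 had 4.27 with ESRP2 siRNA against 14.8 with control siRNA, where the intervals of ESRP2 overlapped.

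SIX2, SALL1, WT1, EYA1 and GATA3 were expressed, with an FPKM of 1 or more in each library. These are 5 of 8 genes, where 48.1% of all 23284 genes reached that level. PAX2 had 2.13 with Arkadia siRNA and with control siRNA, but 0.835 with ESRP2 siRNA. LHX1 lay around 1, and PAX8 was at or near 0. The order by level in the control siRNA library was SIX2, SALL1, WT1, EYA1, GATA3, PAX2, LHX1 and PAX8. It was the same with Arkadia siRNA, and with ESRP2 siRNA PAX2 came after LHX1. Intervals of neighbours in this order overlapped in each library down to PAX8, whose interval lay below that of the gene before it.

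SIX2 (chromosome 2, 45232324 to 45236542 on hg19), the nephron progenitor factor, was highest. Its FPKM was 10.6 (5.22 to 15.9) with ESRP2 siRNA, 16.0 (8.14 to 23.9) with Arkadia siRNA and 13.9 (6.97 to 20.7) with control siRNA, from about 278, 306 and 351 reads. The 3 intervals overlapped, and the control value lay between the others. In the control siRNA library 77.6% of all genes had a lower FPKM than SIX2.

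SALL1 (chromosome 16, 51169886 to 51185183) had the smallest ratio between its highest and lowest library of the 5 expressed genes. It had an FPKM of 9.31 (4.23 to 14.4) with ESRP2 siRNA, 9.78 (4.43 to 15.1) with Arkadia siRNA and 10.0 (4.65 to 15.4) with control siRNA, and with about 586, 446 and 606 reads it was the best covered of the 8. Its intervals overlapped those of SIX2 in each library, so their order is not set apart from the error.

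WT1 (chromosome 11, 32409322 to 32457081) had an FPKM of 3.92 (1.61 to 6.23) with ESRP2 siRNA, 4.52 (1.83 to 7.22) with Arkadia siRNA and 4.2 (1.76 to 6.63) with control siRNA, from about 120, 108 and 140 reads. EYA1 (chromosome 8, 72109668 to 72274467) had 3.90 (1.66 to 6.13), 3.45 (1.48 to 5.40) and 4.10 (1.78 to 6.42) in the same libraries, from about 195, 130 and 200 reads. Both genes were level across the libraries within their intervals. WT1-AS, a non-coding gene that starts beside WT1 in the table, stood at 0.488, 0.336 and 0.326.

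GATA3 (chromosome 10, 8096667 to 8117164), the duct factor, had an FPKM of 2.65 (1.11 to 4.19) with ESRP2 siRNA, 2.18 (0.878 to 3.51) with Arkadia siRNA and 3.13 (1.32 to 4.94) with control siRNA, from about 99.5, 59.4 and 113 reads. The control value was the highest of the 3, and the intervals overlapped.

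PAX2 (chromosome 10, 102505468 to 102589698) had an FPKM of 0.835 (0.305 to 1.38) with ESRP2 siRNA, 2.13 (0.869 to 3.39) with Arkadia siRNA and 2.13 (0.885 to 3.37) with control siRNA. This corresponds to about 41.3, 76.6 and 102 reads. The ESRP2 siRNA library stood below the other 2, with an interval that overlapped both of theirs.

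LHX1 (chromosome 17, 35294772 to 35301915) had an FPKM of 0.946 (0.391 to 1.52) with ESRP2 siRNA, 1.14 (0.489 to 1.81) with Arkadia siRNA and 0.718 (0.269 to 1.15) with control siRNA, from about 39.7, 34.8 and 29 reads. Its lower bounds were above 0 in the 3 libraries, so it was detected in each of them at a low level. Its intervals overlapped.

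PAX8 (chromosome 2, 113973574 to 114036498), which partners PAX2 in the embryo, was listed at 0 with ESRP2 siRNA, and had an FPKM of 0.0272 with Arkadia siRNA and 0.0615 with control siRNA. These amount to about 0, 0.958 and 2.87 reads, and the lower bounds were 0. The upper bounds of 0.109, 0.148 and 0.173 lay below the lower bounds of the other 7 genes in the same libraries. The non-coding LOC654433, listed at the same locus, stood at 0.0902, 0.0828 and 0.0936. Whether strand was used in counting is not given in the sources used here.

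**Figure D1:**
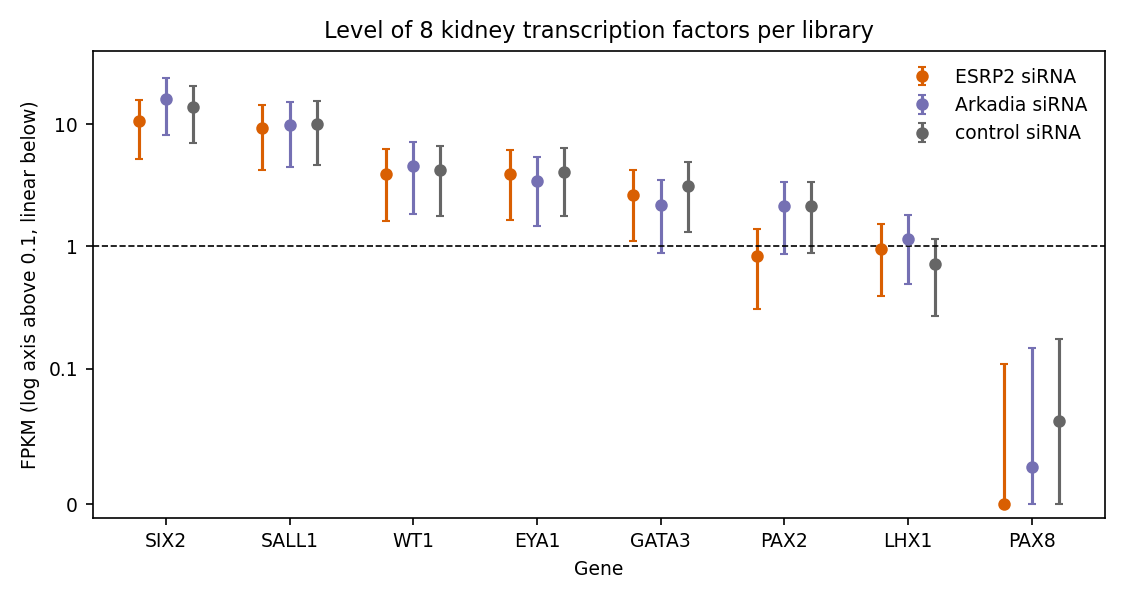
FPKM of the 8 kidney transcription factors (x axis, ordered by the control siRNA library) on an axis that is logarithmic above 0.1 and linear below, 1 point per library, with bars for the authors' interval. SIX2 and SALL1 lie near 10, and WT1, EYA1 and GATA3 between 2.18 and 4.52. PAX2 lies between 0.835 and 2.13, LHX1 around the dashed line at 1, and PAX8 near 0.

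The comparison of ESRP2 siRNA with control siRNA asks which transcripts differ when the splicing regulator ESRP2 is reduced. Ratios are log2((FPKM + 1)/(FPKM + 1)), a scale that understates differences of low genes, and a gene counts as higher or lower past 1.5-fold. The 6 genes with a mean FPKM of at least 1 entered, without LHX1 and PAX8, among 11870 genes in all. PAX2 was lower and the other 5 were neither higher nor lower. This 1 of 6 stands beside 11.4% of all genes lower and 19.9% higher. At 2-fold none of the 6 passed, beside 5.45% of all genes higher and 2.42% lower. The log2 ratio of PAX2 was -0.77, and on the linear scale its FPKM was 0.392-fold of control. The intervals of PAX2 overlapped, as did those of the other members, where 1.28% of all genes were past 1.5-fold with intervals that did not overlap.

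SIX2 had the next largest difference in that comparison, with a log2 ratio of -0.36, and GATA3 had -0.18. SALL1 had -0.10, WT1 -0.08 and EYA1 -0.06. The 6 ratios thus were all below 0, with a median of -0.14, where the median of all genes was 0.12. LHX1, which did not enter, was at 0.18.

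Transcript GC content moved with these ratios. Across all genes the decile median of the log2 ratio of ESRP2 siRNA over control siRNA was 0.60 at a GC content of 37.5% and -0.49 at 64.4%. PAX2 transcripts have a GC content of 63.3% and lie in the highest decile, and after subtraction of the decile median the PAX2 ratio was -0.28, no longer past 1.5-fold. For SIX2, at 61.9% GC, the ratio after subtraction was -0.03. EYA1, at 43.3% GC, had -0.48 after subtraction, against -0.06 before it. How far GC content sets these ratios was not tested.

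The comparison of Arkadia siRNA with control siRNA asks the same for the ubiquitin ligase Arkadia. None of the 6 members passed 1.5-fold, where 9.81% of all genes were higher and 11.8% lower, nor 2-fold, where 1.68% were higher and 2.24% lower. The intervals of each member overlapped, and 0.438% of all genes were past 1.5-fold without overlap. GATA3 had the largest ratio, -0.37 on the log2 scale, with a linear FPKM 0.699-fold of control. EYA1 had -0.20, SALL1 -0.03, PAX2 0.00, WT1 0.09 and SIX2 0.20. The ratios lay on both sides of 0, and their median of -0.02 equalled that of all genes. With the GC decile medians subtracted GATA3 had -0.52 and PAX2 -0.34, both still within 1.5-fold.

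Both comparisons share the control siRNA library, so their values are given side by side and not correlated. LHX1 was 1.32-fold of control on the linear FPKM scale with ESRP2 siRNA and 1.59-fold with Arkadia siRNA, which is 0.18 and 0.32 as log2 ratios with 1 added to the FPKM. The control value rests on about 29 reads. The intervals overlapped, so with 1 library per group a difference of LHX1 is not set apart from the error.

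Set directly against each other, the libraries differed for PAX2, with a log2 ratio of 0.77 for Arkadia siRNA over ESRP2 siRNA and 2.55-fold on the linear scale. This is 1 of 6 members higher, beside 21.2% of all genes higher and 30.8% lower. At 2-fold it was none, beside 8.9% higher and 15.5% lower, and the members' intervals overlapped, where 6.36% of all genes were past 1.5-fold without overlap. SIX2 followed with 0.56, just inside the threshold, and passed it after rescaling of the libraries. WT1 had 0.17, SALL1 0.06, EYA1 -0.14 and GATA3 -0.20. The trend with GC content was steepest here, with decile medians of -1.08 and 0.80 at the ends. Subtraction left -0.03 for PAX2 and -0.09 for SIX2. For EYA1 it gave 0.49 and for GATA3 -0.44, both larger in size than before and within 1.5-fold.

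**Figure D2:**
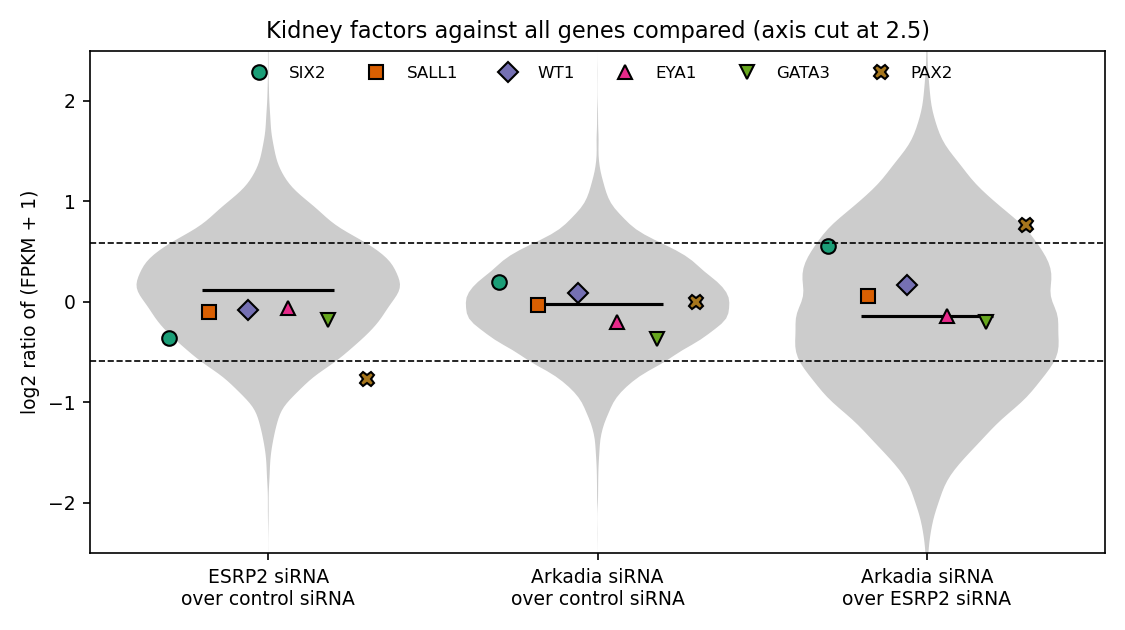
log2 ratio of (FPKM + 1) for the 3 comparisons (x axis). Grey shapes show the distribution over 11870 genes with the median as a line, symbols show the 6 members that entered, and dashed lines mark 1.5-fold. PAX2 lies beyond the lines at -0.77 with ESRP2 siRNA over control siRNA and at 0.77 in the direct comparison, and no member does with Arkadia siRNA over control siRNA.

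**Figure D3:**
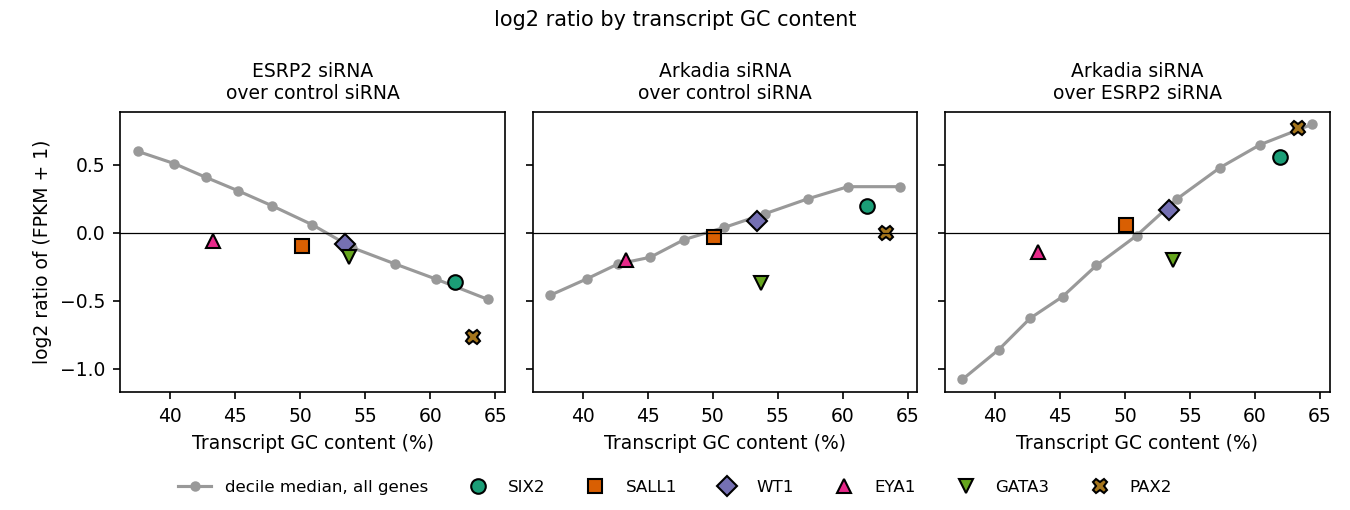
log2 ratio of (FPKM + 1) against transcript GC content in percent, 1 panel per comparison. The grey line joins the medians of GC deciles over all genes compared and symbols are the members; PAX2 and SIX2, at 63.3% and 61.9% GC, lie where the line is low in the left panel and high in the right one.

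GATA3, WT1 and PAX2 were assigned to different isoforms in different libraries. A share is an isoform's part of the summed isoform FPKM of its gene. The usage change between a pair of libraries is the part of this sum, in percentage points, that sits on other isoforms. PAX2, WT1, SALL1, EYA1 and GATA3 have at least 2 isoforms and a mean summed FPKM of at least 1. A change of 25 points or more occurred in 3 of these 5 with ESRP2 siRNA over control siRNA, where 25.6% of 5185 genes had one. It occurred in 4 of 5 with Arkadia siRNA over control siRNA, beside 23.7%, and in 3 of 5 for Arkadia siRNA over ESRP2 siRNA, beside 32.0%. Among 1845 genes in the same range of level, with a mean FPKM of 1.70 to 9.70, such changes were more common, at 33.2%, 33.8% and 40.2%.

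GATA3 was assigned to one isoform or the other as a whole. The shorter isoform NM_002051 (3067 nt) had an FPKM of 2.65 with ESRP2 siRNA and 2.18 with Arkadia siRNA, and 0.00109 with control siRNA. The longer NM_001002295 (3070 nt), which has the AAG segment printed above, had 0.00245 and 0.000945 with the knockdown siRNAs, against 3.13 with control siRNA. Its share was 0.0924% and 0.0432% in the knockdown libraries, against 100% in the control siRNA library.

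The usage change of GATA3 was 99.9 points in each comparison with control and 0.0491 points between the knockdown libraries. A change of 90 points or more was found for 1.56% of all 5185 genes with ESRP2 siRNA and 1.35% with Arkadia siRNA, and for 2.1% in the direct comparison. Of 90 genes whose isoform pair differs by 3 nt in length, 3 (3.33%) had one in any given comparison, counted separately for each. The segment makes up 0.0977% of the longer isoform, and about 59.4 to 113 reads covered the whole gene per library. The FPKM of the isoform near 0 lay outside its own deposited interval of 0 to 0 in each library, so non-overlap of these intervals is not counted as a call. Both isoforms are coding, and the segment leaves the reading frame as it is.

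WT1 kept its level while the isoforms it was assigned to differed. The KTS segment was carried by 60.8% of WT1 FPKM with ESRP2 siRNA, 0.00504% with Arkadia siRNA and 36.0% with control siRNA. Exon 5 was carried by 27.5% and 54.1% in the knockdown libraries, against 86.7% with control siRNA. The internal start site (NM_001198551 and NM_001198552) accounted for 88.3% and 54.1% with ESRP2 and Arkadia siRNA, against 32.6% with control siRNA. These 3 features are tied to each other, because the table lists 5 WT1 isoforms and not every combination. Which feature each of the upstream-start isoforms carries was read from their lengths, 3026, 3017 and 2966 nt, which step by 9 and 51 nt.

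By isoform, NM_001198552, which carries KTS and lacks exon 5, had an FPKM of 2.38 (0.603 to 4.15) with ESRP2 siRNA, 0.000228 with Arkadia siRNA and 0.230 (0 to 0.904) with control siRNA. NM_024426, with both segments, was listed at 0 in both knockdown libraries and at 1.28 (0 to 2.61) with control siRNA. NM_000378, with neither, had 0.458 (0 to 1.18), 2.08 (0.394 to 3.76) and 0.328 (0 to 1.0). NM_024424, with exon 5 and no KTS, was at 0.000613 and 0 in the knockdown libraries, against 1.22 (0 to 2.53) with control siRNA. NM_001198551, also with exon 5 and no KTS but from the internal start, had 1.08 (0 to 2.40), 2.45 (0.518 to 4.4) and 1.14 (0 to 2.66). No WT1 isoform was the leading one in more than 1 library.

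Most of these intervals reached 0. The usage changes of WT1 were 59.5 points with ESRP2 siRNA over control siRNA, 65.0 with Arkadia siRNA over control siRNA and 60.8 for Arkadia siRNA over ESRP2 siRNA. Of the genes in the same level range, 91.4%, 94.3% and 89.1% had a smaller change. The 3 changes were of similar size, so the assigned shares, as point values, differed between each pair of libraries. The KTS segment makes up 0.297% of NM_024426. About 120, 108 and 140 reads covered the whole gene with ESRP2, Arkadia and control siRNA. The FPKM of 0.000228 for NM_001198552 with Arkadia siRNA lay outside its own deposited interval of 0 to 0.

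PAX2 was assigned to a different set of isoforms in each library. With ESRP2 siRNA 99.9% of its FPKM went to NM_003989 (4038 nt), with an FPKM of 0.834 (0.328 to 1.36). With Arkadia siRNA 100% went to NM_000278 (4057 nt), at 2.13 (0.870 to 3.39). With control siRNA NM_000278 held 57.4%, NM_003988 (4140 nt) 27.4% and NM_003987 (4126 nt), which has exon 6 as printed above, 15.1%.

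NM_000278 and NM_003989 differ by 19 nt in length, 0.468% of the longer, and where these bases lie was not determined. The usage changes of PAX2 were 100 points with ESRP2 siRNA over control siRNA, 42.6 with Arkadia siRNA over control siRNA and 100 for Arkadia siRNA over ESRP2 siRNA. They rest on about 41.3 reads over the gene in the ESRP2 siRNA library, where the summed FPKM of PAX2 was below 1. Exon 6 was carried by 0.0804% and 0% in the ESRP2 and Arkadia siRNA libraries, against 15.1% with control siRNA, where its isoform NM_003987 had an interval of 0 to 0.812.

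EYA1 and SALL1 have isoforms from 2 start sites each. For EYA1 the longest isoform NM_000503 held 46.8% with ESRP2 siRNA, 83.7% with Arkadia siRNA and 55.9% with control siRNA, and its FPKM of 1.82 (0.366 to 3.29), 2.89 (1.10 to 4.66) and 2.30 (0.651 to 3.95) overlapped. NM_172059, from the other start, had 2.07 (0.412 to 3.73), 0.386 (0 to 1.14) and 1.25 (0.0229 to 2.59). EYA1 usage changed by 22.7 points with ESRP2 siRNA, 32.8 with Arkadia siRNA and 42.0 between the knockdowns.

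SALL1, the best covered, changed least of the 5 in both comparisons with control siRNA. NM_002968 held 95.4% and 97.0% with ESRP2 and Arkadia siRNA, against 100% with control siRNA, and the usage changes were 4.60, 2.96 and 1.64 points. SIX2 and LHX1 have 1 isoform in the table. The 4 PAX8 isoforms were too low for shares.

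**Figure D4:**
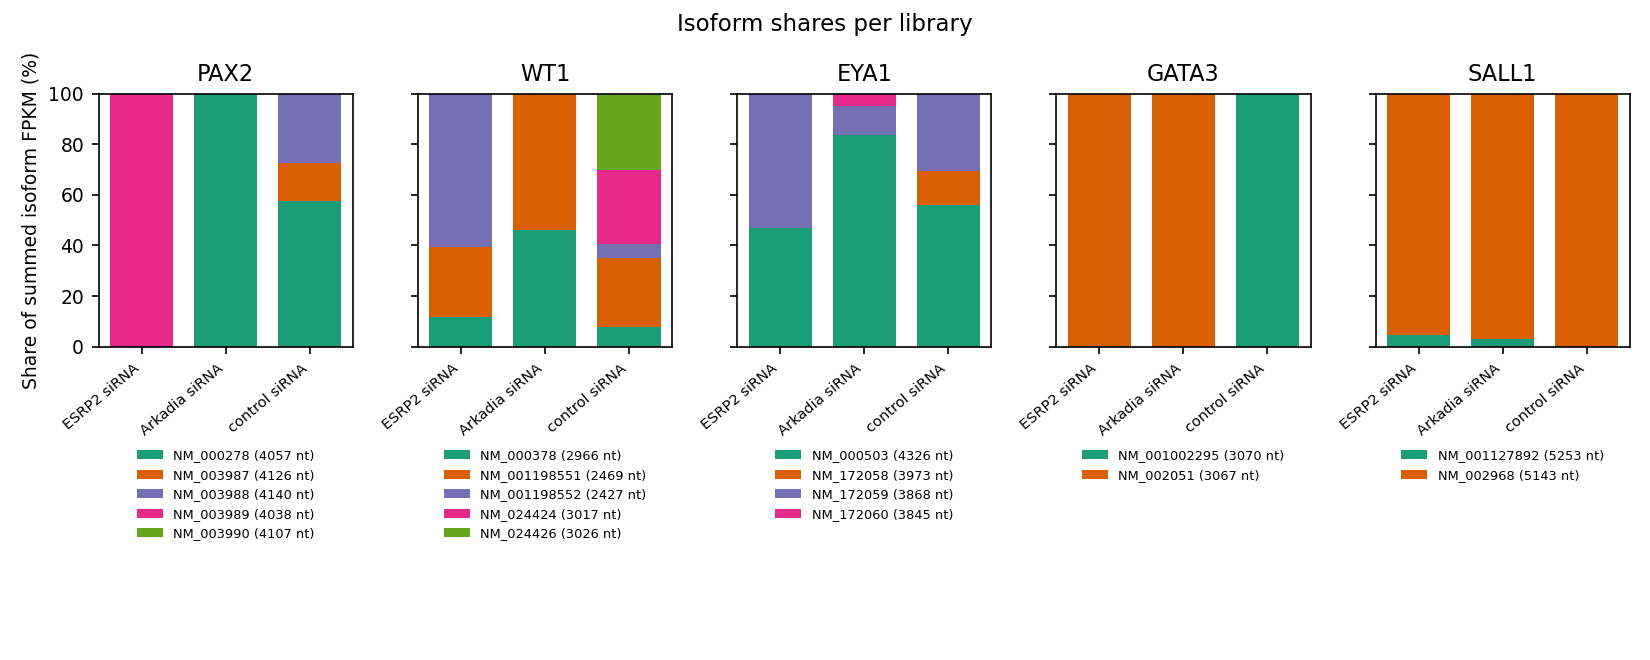
Stacked shares of the summed isoform FPKM (percent) for 5 genes, 1 bar per library and 1 colour per RefSeq isoform with its length. GATA3 is a single colour in each bar, the shorter isoform in both knockdown libraries and the longer one with control siRNA; WT1 and PAX2 differ in all 3 bars, and SALL1 is nearly the same in each.

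The relatives of the 8 genes show which family members these cells use. The PAX, SALL, GATA and LIM homeobox families and the group around SIX2, EYA1 and DACH1 held 43 measured genes. Of these, 26, 30 and 28 reached an FPKM of 1 with ESRP2 siRNA, Arkadia siRNA and control siRNA. In every library it was reached by 3 of 9 PAX genes, 2 of 4 SALL genes and 4 of 6 GATA genes. For the group around SIX2 it was 10 of 12 and for LIM homeobox genes 7 of 12, beside 48.1% of all genes. PAX3 and PAX6, factors of neural and muscle development, had 5.41 and 5.90 with ESRP2 siRNA, 5.79 and 5.02 with Arkadia siRNA and 6.23 and 4.39 with control siRNA, each above PAX2. SALL2 had 13.2, 16.0 and 19.2, above SALL1 in each library, and GATA2, GATA4 and GATA6 each exceeded GATA3 in each library. LHX1 was lower than LHX2, LHX4, LHX6, LHX8, LMX1B, ISL1 and ISL2 in each library.

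EYA2 and EYA3 differed in opposite directions with ESRP2 siRNA. EYA2 was lower, at 3.07 against 5.41 with control siRNA, and EYA3 higher, at 20.9 against 11.8, and the intervals overlapped. The log2 ratios of -0.66 for EYA2 and 0.77 for EYA3 were -0.43 and 0.47 after subtraction of the GC decile medians, within 1.5-fold. GATA4 was higher with Arkadia siRNA, with 19.6 (9.70 to 29.4) against 8.01 (3.94 to 12.1) with control siRNA. At 1.5-fold with ESRP2 siRNA over control siRNA, 0 of 4 PAX genes were higher and 1 lower (PAX2), 2 and 1 of 10 genes of the SIX2 and EYA1 group, 0 and 0 of 3 SALL genes, 1 and 0 of 4 GATA genes and 2 and 0 of 7 LIM homeobox genes. With Arkadia siRNA over control siRNA the counts were 0 and 0, 1 and 1, 0 and 0, 2 and 0, and 3 and 0 of the same families. The LIM homeobox median was 0.49 there, or 0.30 after GC subtraction, beside -0.02 for all genes. These counts and those of the lists that follow are without GC subtraction. Beside them, 19.9% of all genes were higher and 11.4% lower with ESRP2 siRNA over control siRNA. With Arkadia siRNA over control siRNA 9.81% were higher and 11.8% lower.

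**Figure D5:**
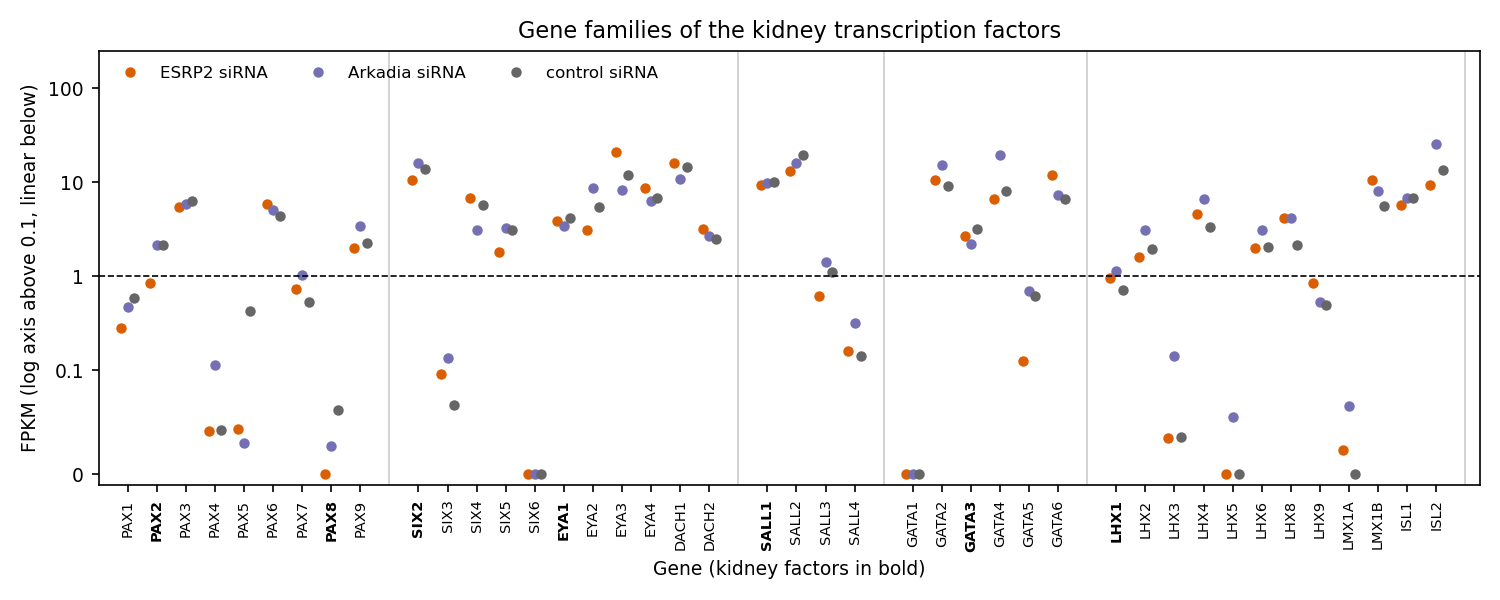
FPKM of genes of the families that hold 7 of the 8 factors (WT1 has no family here), 1 point per library, on an axis that is logarithmic above 0.1 and linear below. SALL2 lies above SALL1 and GATA2, GATA4 and GATA6 above GATA3, and PAX8, SIX6 and GATA1 are at or near 0.

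Among 16 genes for partners of these factors, 1 was higher and 4 lower of 14 tested with ESRP2 siRNA over control siRNA, and 1 and 1 with Arkadia siRNA over control siRNA. LDB1 and SSBP3, cofactors of LIM homeodomain proteins such as LHX1, were lower with ESRP2 siRNA, at 28.1 and 21.1, against 48.6 and 38.6 with control siRNA, and LDB1 was higher with Arkadia siRNA, at 75.7. After GC subtraction LDB1 was within 1.5-fold in both comparisons, with log2 ratios of -0.44 and 0.29, and SSBP3 was at -0.90 with ESRP2 siRNA. WTIP, a LIM protein that binds WT1, had 0.335 (0.114 to 0.571) with ESRP2 siRNA against 1.70 (0.723 to 2.66) with control siRNA, and these intervals did not overlap. Of all genes compared 1.28% were past 1.5-fold without overlap. RBBP4, a subunit of the NuRD complex that SALL1 recruits, was 109 with ESRP2 siRNA and 33.7 with Arkadia siRNA, against 72.1 with control siRNA, with overlapping intervals. Its log2 ratio over control was 0.59 with ESRP2 siRNA, or 0.18 after GC subtraction, and -1.08 with Arkadia siRNA, or -0.85.

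Of 17 nephron progenitor and mesenchyme genes, 10 were expressed in each library, where 48.1% of all genes were. The 10 included FOXC1 with 50.3, 45.2 and 54.6 and CITED1, a progenitor gene, with 33.8, 51.6 and 31.9. The log2 ratio of CITED1 for Arkadia siRNA over control siRNA was 0.68, or 0.34 after GC subtraction. With ESRP2 siRNA 1 was higher and 1 lower of 10 tested, and with Arkadia siRNA 2 and 1. Of 15 nephric duct and ureteric bud genes 9 were expressed, led by KRT18 with 115, 131 and 104. Of 11 tested there, 0 were higher and 1 lower with ESRP2 siRNA, and 3 and 0 with Arkadia siRNA, including WNT11, a bud tip ligand, with 9.57 (4.61 to 14.5) against 4.21 (1.92 to 6.49) with control siRNA. Early nephron genes had 9 of 15 expressed, with 0 higher and 2 lower of 9 with ESRP2 siRNA and 1 and 1 with Arkadia siRNA. LEF1, a factor of the WNT pathway, was lower there, with 10.8 (5.13 to 16.4) against 17.4 (8.41 to 26.3) with control siRNA. These intervals overlapped.

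Genes of differentiated kidney were mostly low, where 48.1% of all genes were expressed in each library. Podocyte genes had 5 of 10 expressed, yet NPHS1, which encodes nephrin of the slit diaphragm, was at 0.0618 with ESRP2 siRNA, 0.0639 with Arkadia siRNA and 0.0641 with control siRNA. Tubule genes had 3 of 16 expressed, and UMOD and AQP2, which mark the thick ascending limb and the collecting duct, were at most 0.151 in any library. Podocyte genes had 2 higher and 1 lower of 5 tested with ESRP2 siRNA and 1 and 0 with Arkadia siRNA, and tubule genes 1 and 1 of 5 and 1 and 0. CD2AP, a slit diaphragm adaptor, had 19.9 (10.1 to 29.7) with ESRP2 siRNA against 8.39 (4.16 to 12.6) with control siRNA, with overlapping intervals, and its log2 ratio of 1.15 was 0.55 after GC subtraction, within 1.5-fold.

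Markers from outside the kidney were mostly low. Of adrenal and neural crest genes 4 of 16 were expressed in each library, and of other markers 1 of 16. Of all genes 48.1% were. Of 16 adrenal and neural crest genes, 4, 5 and 6 reached an FPKM of 1 with ESRP2, Arkadia and control siRNA, and of 16 markers of blood, endothelium, liver, muscle and other cells 1, 2 and 2 did. The steroid and catecholamine genes NR5A1, STAR, CYP11A1, TH and DBH were at most 0.134 in any library. By contrast, the neurofilament genes NEFL and NEFM had 29, 30.4 and 30.9, and 9.9, 12.1 and 18.3. GATA4 had 6.62, 19.6 and 8.01 and GATA6 11.8, 7.23 and 6.53. HAND2 reached 2.25 and CHGB 1.58 with control siRNA. PTPRC, PECAM1 and HBB, of leukocytes, endothelium and red cells, were at most 0.0603. At 1.5-fold 1 adrenal or neural crest gene was higher and 2 lower of 5 tested with ESRP2 siRNA and 1 and 0 with Arkadia siRNA, and of the 2 other markers tested 0 and 1, and 0 and 0.

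Genes of these lists with the most similar pattern over the 3 libraries were found by Euclidean distance of log2(FPKM + 1) centred on each gene's mean. SALL1 was closest to NEFL at 0.0065 and SIX2 to SALL3 at 0.0142, PAX2 to CCND1 at 0.0982, WT1 to GFRA1 at 0.0582, and EYA1 and GATA3 both to FOXC1, at 0.0513 and 0.0754. These distances rest on 3 libraries. Of 11869 other genes, 2 were as close to SALL1, 7 to SIX2, 114 to PAX2, 127 to WT1, 81 to EYA1 and 98 to GATA3.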

How the data were processed

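Per the submitters' processing notes, the authors made the FPKM values on hg19 with Cufflinks 2.1.1 and Cuffdiff, and the aligners TopHat2 2.0.10 and Bowtie2 2.1.0. How libraries were scaled is not given in the sources used here. The deposited tables give FPKM, a lower and an upper bound and a status per library, per the file headers, and the isoform table gives isoform length. No counts were used. About 92.4% of 4603 low interval bounds were whole multiples (tolerance 0.01) of 1 step, pooled over the libraries. Reads were estimated per library from the most common low FPKM of genes with 1 isoform. These estimates cover counting only.

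Groups came from the siRNA labels, with 1 library each. Ratios used genes of status OK whose FPKM averaged 1 or more and whose longest isoform had 300 nt or more, with 1 added before log2. Calls were at 1.5-fold. Locus positions are hg19 and counted from 1. GC content came from GENCODE 29 transcripts for 98.9% of genes compared. The members, the 13 gene lists and the thresholds were chosen with earlier results of these data known, and the GC subtraction, the level range and the grouping of isoforms by segment after seeing the data. Genes outside the 8 were taken from a rule (per list the 4 highest, up to 4 past 1.5-fold per comparison and defining genes at 0; per member the 2 most alike), of which part is named; defining genes near 0 and relatives set beside a member in level were chosen after their values were seen. Some genes of the lists are counted but not reported here by name. Python 3.11.15 and pandas 2.3.3 were used.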

Additional observations from a re-analysis of the deposited data

How the results depend on the processing

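The count of 5 expressed members became 2 at an FPKM of 5 or more; it was 7 at 0.5 or more or with a lower bound above 0, and 5 from summed isoforms. With ESRP2 siRNA over control siRNA the 1 member past 1.5-fold, PAX2, became 0 at 2-fold, 0 with intervals required not to overlap and 0 after GC subtraction (chosen after seeing the data), and PAX2 had -1.25 with a pseudocount of 0.1. For Arkadia siRNA over ESRP2 siRNA the 1 member became 2 with a pseudocount of 0.1 and 2 after either rescaling (median of ratios or upper quartile), and 0 at 2-fold, 0 with intervals that do not overlap and 0 after GC subtraction, where PAX2 reversed from 0.77 to -0.03. With Arkadia siRNA over control siRNA the count was 0 under each alternative. Of 108 single log2 ratios recomputed, 102 moved by less than the SD implied by the interval widths, taken as 4 SD. The summed isoform FPKM gave the main ratios again for each member compared. Its ratios, which are among the 108, and its count of 5 are thus no separate check. Rescaling by the median of ratios moved the median of all genes from 0.12 to 0.01 with ESRP2 siRNA over control siRNA. The causes were not tested. No paired analysis was possible because each group has 1 library, and none could be left out.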
